A study of Mus musculus with 12 samples.

Results

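The comparison set 3 libraries of Rsg1L3P/L3P mouse embryonic fibroblasts against 3 wild-type libraries, all from the moderate folic acid arm of the study. The members were taken by genotype and folate label alone, so they are 6 of the 12 libraries of the series, and all 15186 genes that passed a filter on low counts were compared out of 24279 in the table. Mouse embryonic fibroblasts are primary cells grown out from dissociated embryos, here from embryonic day 12.5. The F3 mice of the moderate arm were fed 2 ppm folic acid and their cells were grown in DMEM with 225 ng/mL. In the fortified arm, used below only for the test of a difference between arms, the diet held 10 ppm and the medium 3600 ng/mL. Diet and medium always moved together, so their parts cannot be told apart. The mutant allele was homozygous, and the labels do not spell out the protein change behind its name, nor whether each library came from a separate embryo. The p-values therefore measure the spread between libraries within the groups, estimated over all 12, which may be partly technical.

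Rsg1 is a small GTPase of the Rab-like family. It works with the CPLANE proteins Fuz, Intu, Wdpcp and Cplane1 at the basal body, the base from which a primary cilium grows. The complex helps to dock the basal body and to load intraflagellar transport particles, the carriers that build the cilium. Vertebrate Hedgehog signalling runs through the primary cilium, and mice that lack ciliary proteins often have neural tube and skeletal defects. Folic acid feeds one-carbon metabolism, which supplies thymidylate, purines and the methyl groups of DNA and histones, and folate status is known to alter the risk that the neural tube stays unclosed.

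The start of the Rsg1 coding sequence is shown because the allele name holds a 3, which may or may not be a codon number. In the GENCODE M21 annotation (GRCm38), Rsg1 lies on the plus strand of chromosome 4, from 141213956 to 141226756, and its coding sequence starts at 141214361. The first 30 coding bases follow, with the third codon in capitals.

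Rsg1: atggccAGAcctcccatgcacggttcggtg

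The third codon of this reference transcript, AGA, encodes arginine, so the letters of the allele name could not be matched to a substitution at that codon.

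Promoters of genes from 3 lists that lay lower in the mutant libraries are shown with the motif of the factor known to drive each list. Each window runs from 250 bases before to 50 bases after the gene start, from RefSeq (GRCm38.p6), and matches on either strand are in capitals. Oas1a, an antiviral oligoadenylate synthetase, has its window at chr5:120907476-120907775 on the minus strand, and Ifit1, an antiviral RNA-binding protein, at chr19:34640639-34640938 on the plus strand. In both, capitals mark GAAANNGAA, the core of the interferon-stimulated response element. Matches overlap each other in these promoters. Mcm5, a subunit of the replicative helicase, has its window at chr8:75109259-75109558 on the plus strand, with overlapping matches to the E2F core TTTNGCGC in capitals. Prdx1, a peroxide-reducing enzyme, has its window at chr4:116685349-116685648 on the plus strand, with the antioxidant response element core TGACNNNGC in capitals.

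Oas1a: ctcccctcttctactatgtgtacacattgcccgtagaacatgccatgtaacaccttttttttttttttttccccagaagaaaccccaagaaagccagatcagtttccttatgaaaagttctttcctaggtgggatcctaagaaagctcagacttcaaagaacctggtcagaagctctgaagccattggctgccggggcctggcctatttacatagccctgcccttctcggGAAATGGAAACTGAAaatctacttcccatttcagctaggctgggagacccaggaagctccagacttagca
Ifit1: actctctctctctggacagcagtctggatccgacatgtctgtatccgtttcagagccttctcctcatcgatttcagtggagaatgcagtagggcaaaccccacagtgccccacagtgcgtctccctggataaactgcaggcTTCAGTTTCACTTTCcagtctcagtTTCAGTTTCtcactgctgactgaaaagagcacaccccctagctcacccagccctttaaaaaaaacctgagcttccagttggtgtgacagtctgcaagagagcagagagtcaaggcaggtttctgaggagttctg
Mcm5: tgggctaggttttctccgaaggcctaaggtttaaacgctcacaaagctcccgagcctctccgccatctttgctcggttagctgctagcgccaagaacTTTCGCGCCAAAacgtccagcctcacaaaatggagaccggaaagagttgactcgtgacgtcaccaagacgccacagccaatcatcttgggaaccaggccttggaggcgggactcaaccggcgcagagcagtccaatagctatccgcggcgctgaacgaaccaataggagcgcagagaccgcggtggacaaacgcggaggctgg
Prdx1: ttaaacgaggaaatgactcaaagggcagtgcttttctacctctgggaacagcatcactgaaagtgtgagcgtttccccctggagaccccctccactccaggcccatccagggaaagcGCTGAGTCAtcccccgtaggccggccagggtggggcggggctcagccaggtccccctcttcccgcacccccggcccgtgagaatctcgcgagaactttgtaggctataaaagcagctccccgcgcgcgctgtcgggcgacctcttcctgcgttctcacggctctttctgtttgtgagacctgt

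The interferon motif was present in 15 of the 27 interferon response genes with a promoter in the table (55.6%), beside 8.6% of the 11371 tested genes with a promoter. The E2F motif was present in 11 of 32 DNA replication genes (34.4%), beside 2.7% of all. The antioxidant motif was found in 7 of 17 NRF2 targets (41.2%), beside 16.8% of all. The sterol regulatory element core TCACNCCAC was present in 1 of 16 cholesterol synthesis genes (6.2%), beside 1.5% of all. These are matches of letters and describe the lists, not binding in these cells.

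Library totals in the moderate arm ran from 39339190 to 46018311 estimated counts. The mutant libraries were more alike than the wild-type ones. Their pairwise correlations of log2 CPM (counts scaled to a common library size) were 0.979 to 0.990, beside 0.922 to 0.969 in wild type, and the median SD of a gene was 0.188 against 0.416. The SD was smaller in mutant for 81.5% of genes. Fibroblast markers were abundant in every library, with a summed level of 21060 to 22260 CPM in mutant and 12120 to 25390 CPM in wild type. Marker sums of other cell types were lower, and in bulk RNA fewer cells of a type and less RNA per cell cannot be told apart. The summed level of 24 skeletal muscle markers was 2853 to 3790 CPM in mutant. It was 5102 CPM in wild type 1, and 1906 and 1941 CPM in wild type 2 and 3. The summed level of 20 neuron markers was 275.2 to 278.5 CPM in the mutants, 708 CPM in wild type 1 and 238.7 and 262.5 CPM in the other two. The summed level of 16 macrophage and leukocyte markers was 37.5 to 197 CPM in mutant and 36.6 to 240.5 CPM in wild type. Xist, the RNA that coats the inactive X chromosome, was at 648 to 892 CPM in the 3 mutants and 879 CPM in wild type 1, but at 0.0514 and 0.206 CPM in wild type 2 and 3. The latter pair carried the Y-linked Ddx3y at 94.3 and 139 CPM, and the other 4 libraries had none. The sex of the embryos thus moved with genotype in part (3 of 3 mutants against 1 of 3 wild-type libraries with Xist), and its part in the results below was not tested. Without wild type 1, sex moved with genotype wholly, so the 2 cannot be told apart in values given without that library.

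**Figure D1:**
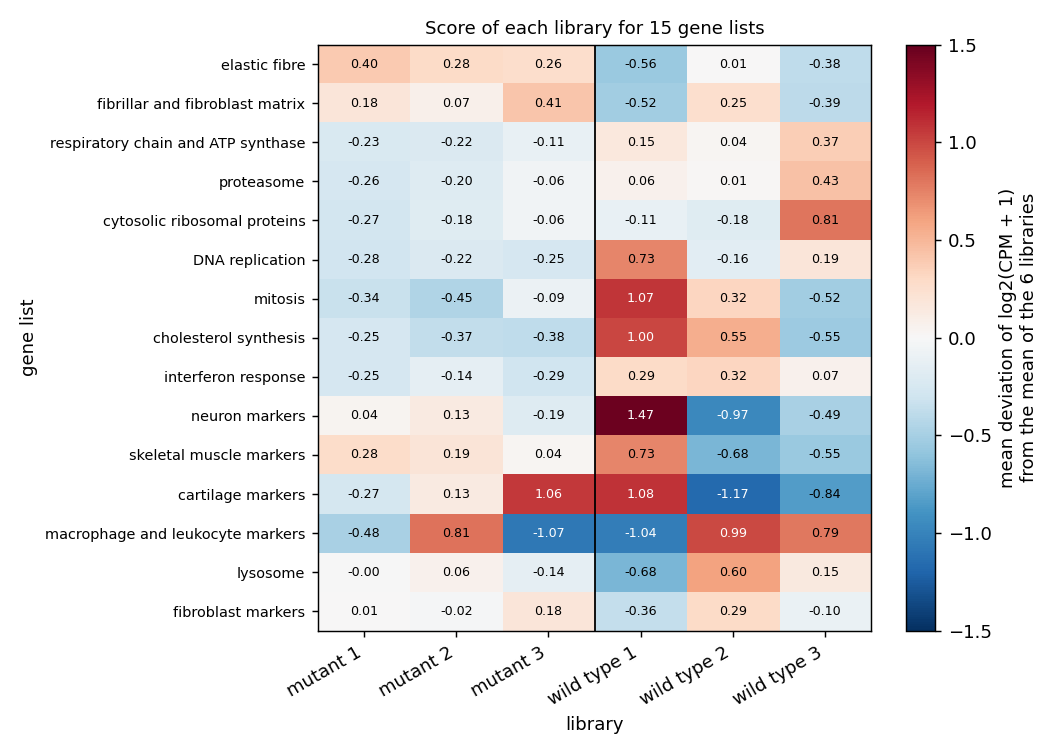
Score of each of the 6 libraries (columns) for 15 gene lists (rows), where a score is the mean over members of log2(CPM + 1) minus the gene's mean over the 6 libraries. Wild type 1 stands apart in neuron markers (1.47), mitosis (1.07) and cholesterol synthesis (1.00), wild type 3 in cytosolic ribosomal proteins (0.81), and the mutant columns resemble each other more than the wild-type columns do.

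Across all genes, no difference between mutant and wild type passed edgeR's quasi-likelihood test after Benjamini-Hochberg adjustment at 0.05 (0 of 15186, 0%), and the smallest adjusted p was 0.198. At an unadjusted p under 0.05 there were 1195 genes (7.87% of those tested), of which 414 were higher (2.73%) and 781 lower (5.14%) in mutant. That split depended on the fit and on the scale. With limma on counts, 778 were higher and 994 lower. With limma on log2(TPM + 1), where TPM is the transcript level scaled for length, 1167 were higher and 226 lower. The median of all genes moved from -0.05 in edgeR to 0.12 on that TPM scale. The medians of gene lists below are to be read against these values. A single library also moved the count: it was 584 without mutant 1, 587 without mutant 2 and 2063 without wild type 1. The groups did not overlap at all in 1977 genes (13%), 963 with every mutant library above (6.34%) and 1014 with every mutant library below (6.68%). A positive log2 fold change, mutant minus wild type, was found for 43.6% of genes.

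DESeq2, run as an alternative, called 50 of 13694 genes at an adjusted p of 0.05 (0.365%), 23 higher and 27 lower. Among the 27 were 3 Y-linked genes, whose level follows the sex of the embryos. Leaving out single libraries changed the set: 7 of the 50 were called without mutant 1, 4 without mutant 2, 28 without mutant 3, and 36, 30 and 29 without wild type 1, 2 and 3. The total DESeq2 count ranged from 4 to 266 over those 6 fits. Cmklr1 alone was called in all 6, Gins2 and Snrnp25 were called in 5 of the 6, and 37 of the 50 in 3 or fewer. These calls are given below as those of DESeq2, and none of them passed the edgeR test.

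Rsg1 itself was expressed at a low level in both genotypes. It was at 1.12, 0.872 and 0.80 CPM in the 3 mutants and at 0.692, 0.488 and 0.964 CPM in the 3 wild-type libraries. The groups overlapped. The log2 fold change was 0.38 (SE 0.38, edgeR adjusted p = 0.842), so no difference in Rsg1 transcript level was resolved at this depth. A missense or small coding change need not alter transcript level, so these values do not check the genotype labels.

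The other CPLANE genes had small or uncertain differences. Fuz, the planar cell polarity effector that binds Rsg1, was at 3.60, 3.78 and 3.28 CPM in mutant and 2.47, 1.90 and 2.29 CPM in wild type. All 3 mutants lay above all 3 wild-type libraries, with a log2 fold change of 0.68 (SE 0.45) and an edgeR adjusted p of 0.749. Cplane1, named 2410089E03Rik in the table, also had groups that did not overlap, at 0.24 (SE 0.16). Intu (0.01, SE 0.29) and Wdpcp (-0.34, SE 0.40) overlapped between the groups. Of the 33 tested CPLANE and intraflagellar transport genes, 15 had positive and 18 negative log2 fold changes, with a median of -0.04 beside -0.05 for all genes. In this list 4 genes were entirely above wild type and 0 entirely below, beside 6.34% and 6.68% of all genes. Ift172, a subunit of the outward-moving IFT-B particle, was at 55.7, 59.5 and 51.6 CPM in mutant and 32.5, 42.0 and 47.3 CPM in wild type. Every mutant was above every wild-type library (0.45, SE 0.24, edgeR adjusted p = 0.669). Wdr35, a subunit of the IFT-A particle, overlapped at -0.27 (SE 0.13). The 41 genes of the basal body, transition zone and ciliary membrane had a median of -0.08. Of the 41, only Rab8a, a GTPase of vesicle traffic into the cilium, had groups that did not overlap, beside 13% of all genes. It was at 68.3, 71.8 and 72.6 CPM in mutant and 82.5, 91.9 and 92.0 CPM in wild type (-0.32, SE 0.12, edgeR adjusted p = 0.605). On the TPM scale the medians of both cilium lists were 0.13 and 0.11, level with the 0.12 of all genes.

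The nearest tested gene after Rsg1 had one of the larger differences on the higher side. Arhgef19, a guanine nucleotide exchange factor, starts 12743 bases after the end of Rsg1 on the same strand (chr4:141239499-141257564, GRCm38). It was at 7.97, 6.91 and 5.10 CPM in mutant and 1.47, 2.67 and 2.11 CPM in wild type. The lowest mutant was 1.91-fold above the highest wild-type library. The log2 fold change was 1.68 (SE 0.41), with an adjusted p of 0.588 in edgeR and 0.0236 in DESeq2, which called it in 3 of the 6 fits with a library left out. Fbxo42, an F-box protein gene ending 9894 bases before Rsg1, overlapped between the groups. Among the 12 tested genes nearest to Rsg1, 6 on each side and up to 241134 bases away, 3 had groups that did not overlap (Szrd1, Arhgef19 and Spen), beside 13% of all tested genes. The 11 other than Arhgef19 had log2 fold changes between -0.36 and 0.95. The 83 tested genes within 5 Mb of Rsg1 had a median of 0.03, with 9 genes entirely above and 7 entirely below wild type (10.8% and 8.4%, beside 6.3% and 6.6% of all genes with coordinates). Within 10 Mb, 6.82% of 220 genes were entirely above and 9.09% entirely below (median 0.01), and within 20 Mb 8.37% of 406 genes were on each side (median -0.02). The windows were chosen after the values of Arhgef19 were seen. In the fortified arm Arhgef19 averaged 10.3 CPM in mutant and 7.74 CPM in wild type (log2 0.41).

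The gene with the smallest p was Cmklr1, a G protein-coupled receptor for the secreted ligand chemerin (chr5:113612354-113650426, minus strand, GRCm38). It was at 15, 18.5 and 14.6 CPM in the 3 mutants and 7.96, 6.09 and 6.72 CPM in the 3 wild-type libraries. The groups were well apart and tight, with the lowest mutant 1.83-fold above the highest wild-type library. The log2 fold change was 1.21 (SE 0.17), with an adjusted p of 0.198 in edgeR and 4.59e-08 in DESeq2. Chemerin itself, encoded by Rarres2, was near 1 CPM or less in every library (0.19, SE 0.45), and the second chemerin receptor Gpr1 overlapped as well (-0.65, SE 0.62). Without wild type 1, Gpr1 was at 0.02, and without mutant 1 Rarres2 was at -0.07. In the fortified arm Cmklr1 averaged 28.0 CPM in mutant and 29.5 CPM in wild type.

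Among the higher genes with the smallest p were a pair of chromatin enzymes. Tet3, which oxidises 5-methylcytosine (chr6:83362373-83459084), was at 168, 178 and 173 CPM in mutant and 91.2, 79.5 and 118 CPM in wild type. Kdm6b, which removes methyl groups from histone H3 lysine 27 (chr11:69398508-69413675), was at 245, 257 and 215 CPM in mutant and 142, 149 and 136 CPM in wild type. Both were higher in every mutant than in any wild-type library, by 0.85 (SE 0.17) and 0.75 (SE 0.16) on the log2 scale. DESeq2 called both, with adjusted p of 0.014 and 0.00964, while the edgeR adjusted p was 0.588 for each. With each library's trends on transcript length and GC content removed, the differences were smaller, at 0.44 for Tet3 and 0.34 for Kdm6b. Creb3l2, a transcription factor anchored in the endoplasmic reticulum that promotes secretory gene expression, was at 116, 101 and 89.5 CPM in mutant and 65.5, 69.1 and 59.5 CPM in wild type (0.66, SE 0.14). Its DESeq2 adjusted p was 0.0121.

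**Figure D2:**
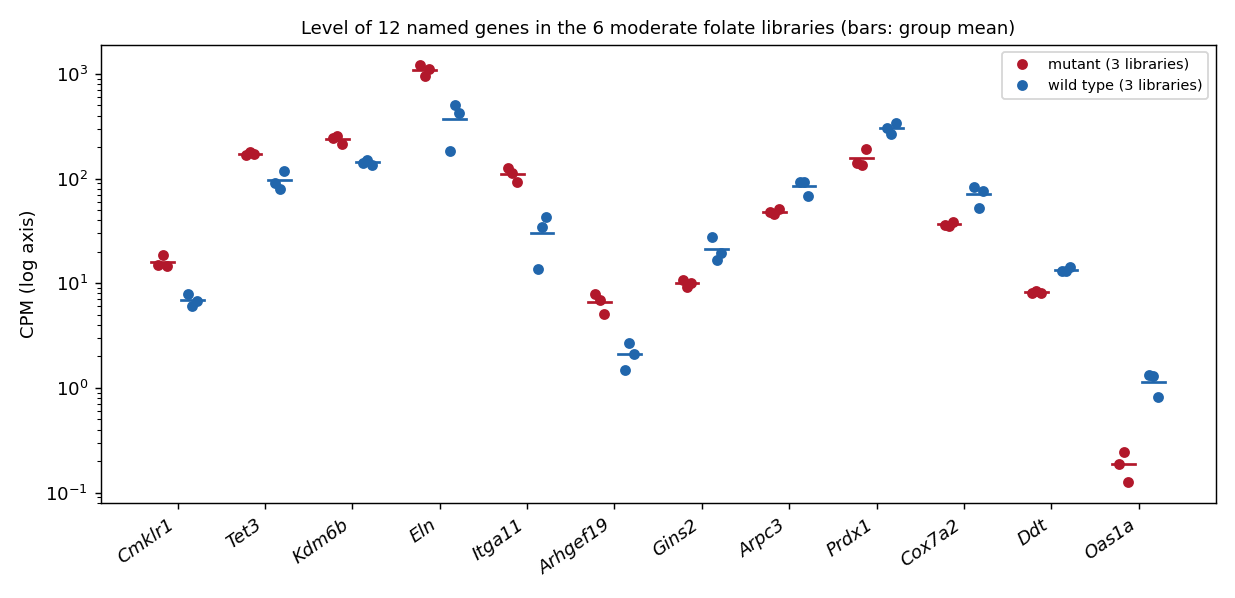
CPM (log axis) of 12 named genes in the 3 mutant (red) and 3 wild-type (blue) moderate folate libraries, with a bar at each group mean. The 6 genes on the left have all mutants above all wild-type libraries and the 6 on the right have all mutants below, with Cmklr1 and Ddt showing tight groups and Eln and Itga11 a wide wild-type spread.

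Genes of the matrix and its contacts were also among the higher named genes. Eln, which encodes tropoelastin (chr5:134702593-134747323), was at 1203, 956 and 1105 CPM in mutant and 185, 503 and 424 CPM in wild type. Itga11, the integrin chain that binds fibrillar collagen (chr9:62677826-62783982), was at 126, 112 and 92.7 CPM in mutant and 13.7, 34.4 and 43.3 CPM in wild type. In both genes wild type 1 was the lowest library and no mutant overlapped wild type. The log2 fold changes were 1.55 (SE 0.34) for Eln and 1.85 (SE 0.43) for Itga11, and DESeq2 called both (adjusted p = 0.0055 and 0.0143), although edgeR did not (0.588 each).

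The elastic fibre list held further genes of this kind. Ltbp4, which helps to assemble elastin and stores latent TGF-beta, was at 161, 179 and 126 CPM in mutant and 36.5, 50.1 and 98.2 CPM in wild type. Emilin1, a glycoprotein at the elastin surface, was at 229, 206 and 89.9 CPM against 88.8, 81.3 and 76.0 CPM, so mutant 3 sat just above wild type 1. Fbn2, the fibrillin of early microfibrils, was at 1456, 1280 and 1242 CPM in mutant and 993, 433 and 592 CPM in wild type. Of 15 tested members, 12 had positive log2 fold changes and 8 had all mutants above all wild-type libraries, with 1 entirely below (beside 6.34% and 6.68% of all genes). The median was 0.70, and it ranged from 0.47 without wild type 1 to 0.80 without wild type 3. With each library's trend on transcript length removed, described below, it was 0.55.

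Fibrillar and fibroblast matrix genes differed less evenly. Of 34 tested, 28 had positive log2 fold changes with a median of 0.35, and 5 had all mutants above all wild-type libraries, beside 6.34% of all genes. Col14a1, a collagen that decorates fibrils, was at 63.1, 40.1 and 77.8 CPM in mutant and 27.1, 15.7 and 19.4 CPM in wild type (1.54, SE 0.40), and DESeq2 called it (adjusted p = 0.0493). Col3a1, a fibrillar collagen chain, was at 0.82 (SE 0.28) and the gelatinase Mmp2 at 0.93 (SE 0.32), both without overlap and both with an edgeR adjusted p of 0.597. The list median was 0.18 without wild type 1 and 0.71 without wild type 2, the library with the highest matrix score in wild type. With the length trend removed it was 0.26, and with length and GC trends removed 0.18. Enzymes that fold and export procollagen had a median of 0.15 over 17 genes. P3h1, a prolyl hydroxylase of collagen, was at 149, 139 and 149 CPM in mutant and 98.0, 127 and 96.9 CPM in wild type (0.44, SE 0.15), while the chaperone isomerase Ppib lay below wild type in every mutant (-0.36, SE 0.17).

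Further genes among the 15 with the smallest p on the higher side had log2 fold changes from 0.60 upward. They included the junction scaffold Magi1 (0.65, SE 0.15), the sodium, potassium and chloride cotransporter Slc12a2 (0.79, SE 0.18), the adhesive phosphatase Ptprm (0.60, SE 0.14) and the aminopeptidase Enpep (1.24, SE 0.30). Adamts10, a secreted protease tied to fibrillin, was at 0.94 (SE 0.23). The scaffold Tanc1 (0.73), the mannosyltransferase Tmtc1 (1.17) and the chondroitin synthase Chsy3 (0.68) completed that group. Adamtsl2, a secreted relative of Adamts10 among the first 10 DESeq2 calls on this side, was at 1.51 (SE 0.37). The widest gaps between groups were in genes of low abundance. Scube2, a secreted protein that helps to release lipid-modified Hedgehog ligand, was at 5.2, 5.43 and 6.18 CPM in mutant and 1.45, 0.283 and 0.918 CPM in wild type, a gap of 3.59-fold between the nearest libraries. Its log2 fold change was 2.65 (SE 0.72), and DESeq2 called it (adjusted p = 0.0318). The endothelial transcription factor Erg had a gap of 2.56-fold, the R-spondin receptor Lgr5 of 2.41-fold and the cytokine Il33 of 2.26-fold. Erg was the only one of 9 tested endothelial markers with groups that did not overlap, beside 13% of all genes. Of those 9 markers, 4 were positive and 5 negative, with a median of -0.21.

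On the lower side, Gins2 had the smallest p. It encodes a subunit of the GINS complex, which activates the replicative helicase (chr8:120578633-120589304). It was at 10.6, 9.26 and 10.2 CPM in mutant and 27.5, 16.8 and 19.5 CPM in wild type. The highest mutant lay 1.58-fold under the lowest wild-type library. The log2 fold change was -1.08 (SE 0.20), with an adjusted p of 0.588 in edgeR and 0.000987 in DESeq2. DESeq2 called it in 5 of the 6 fits with a library left out.

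All 40 tested DNA replication genes and all 28 mitosis genes had negative log2 fold changes. The medians were -0.58 and -0.74. Most groups overlapped, with 10 of the 40 and 3 of the 28 entirely below wild type, beside 6.68% of all genes. Tyms, the thymidylate synthase that uses a folate cofactor, was at 22.9, 22.9 and 24.4 CPM in mutant and 62.8, 28.5 and 32.3 CPM in wild type (-0.82, SE 0.29, edgeR adjusted p = 0.597). Cdk1, the kinase that starts mitosis, was at 33.8, 32.0 and 36.1 CPM in mutant and 114, 49.5 and 51.5 CPM in wild type (-1.08, SE 0.32). In both, wild type 1 was far above the other wild-type libraries. The same held for the lists: wild type 1 had a replication score of 0.73 and a mitosis score of 1.07, whereas the mitosis score of wild type 3 (-0.52) was under that of every mutant. Without wild type 1 the medians were -0.30 and -0.25. Wild type 1 was also the library with the most neuron marker RNA, and the part of that mixture in these lists was not tested.

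Cholesterol synthesis genes gave a similar picture. All 24 were negative, with a median of -0.82, and 4 were entirely below wild type, beside 6.68% of all genes. Idi1, which isomerises isopentenyl diphosphate, was at 27.3, 22.0 and 22.8 CPM in mutant and 155, 80.5 and 22.8 CPM in wild type. Msmo1, a sterol demethylase, was at 45.6, 39.4 and 53 CPM in mutant and 175, 115 and 56.4 CPM in wild type. Wild type 1 and 2 were high in these genes, and wild type 3 was level with the mutants. The log2 fold changes were -1.84 (SE 0.52) and -1.33 (SE 0.40), and the edgeR adjusted p was 0.588 for each. Wild type 3 had the lowest score of all 6 libraries for this list, at -0.55, and without wild type 1 the median was -0.46.

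Interferon response genes were low in every library. Of 34 tested, 33 had negative log2 fold changes and 11 were entirely below wild type, beside 6.68% of all genes. The median was -0.95, beside -0.05 for all genes, and -0.63 with a filter of 1 CPM in 3 libraries. The pseudocount shrinks genes this low, and the median was -0.28 on log2(TPM + 1), beside 0.12 for all genes, and -0.53 on log2(TPM + 0.1), beside 0.17. Oas1a was at 0.187, 0.246 and 0.125 CPM in mutant and 1.34, 1.29 and 0.826 CPM in wild type, a log2 fold change of -2.60 (SE 0.58). Ifit1 was at 0.312, 0.268 and 0.375 CPM in mutant and 2.18, 1.13 and 0.780 CPM in wild type (-2.09, SE 0.58). The promoters of both are printed above. Xaf1, an interferon-induced regulator of apoptosis, was at 1.44, 1.90 and 1.38 CPM against 5.00, 5.37 and 2.59 CPM (-1.46, SE 0.39). All 3 genes had no overlap, and DESeq2 called Oas1a (adjusted p = 0.0236) and Xaf1 (0.0467), while edgeR called none (0.588 each). Leaving out a wild-type library gave list medians from -1.15 to -0.77. Removing the length trend gave -0.91. Ly6a, an interferon-inducible surface protein also called Sca-1, was at 2.23, 2.39 and 1.88 CPM in mutant and 5.00, 21.4 and 4.06 CPM in wild type. Its log2 fold change of -2.23 (SE 0.68) was -1.06 without wild type 2. Ligands of the NKG2D receptor, by which lymphocytes recognise stressed cells, and related class I-like genes had negative log2 fold changes in 6 of 7 tested, with 3 entirely below wild type. None passed the edgeR test. The median was -0.88, -0.27 without wild type 2 and -0.29 on log2(TPM + 1). Raet1e was at 2.98, 4.05 and 3.48 CPM in mutant and 5.97, 6.25 and 8.83 CPM in wild type (-1.0, SE 0.29). Raet1b, called by DESeq2 (adjusted p = 0.00494), belongs to a family of near-identical copies, so its counts are uncertain.

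**Figure D3:**
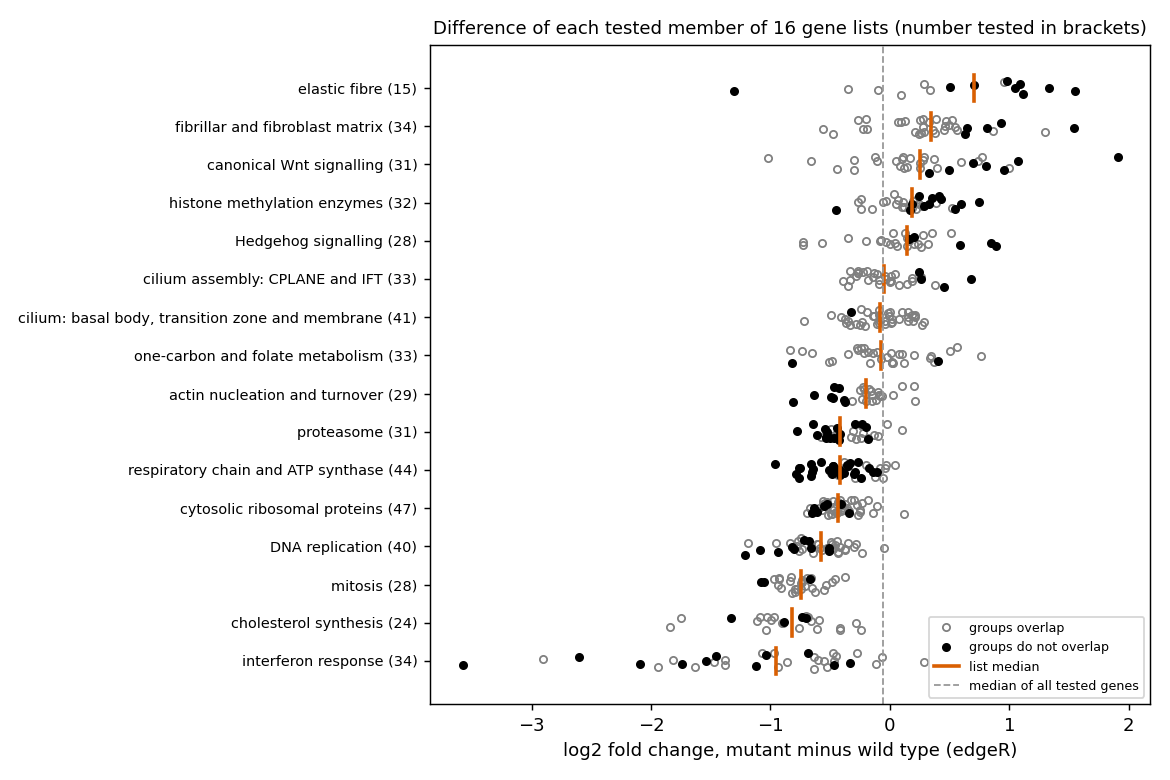
Log2 fold change (mutant minus wild type, edgeR) of each tested member of 16 gene lists, filled where the groups did not overlap, with the list median as an orange bar and the median of all tested genes as a dashed line. Nearly all replication, mitosis, cholesterol and interferon members lie left of the dashed line, elastic fibre members mostly right of it, and the cilium lists straddle it.

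Many genes of the respiratory chain and the proteasome lay entirely below wild type. Of 44 subunits of the respiratory chain and ATP synthase, 43 were negative and 30 were entirely below wild type, beside 6.68% of all genes. Cox7a2, a cytochrome oxidase subunit (chr9:79755361-79759878), was at 36.1, 35.2 and 38.1 CPM in mutant and 83.9, 52.7 and 76.5 CPM in wild type. The log2 fold change was -0.96 (SE 0.22), with an adjusted p of 0.588 in edgeR and 0.0465 in DESeq2. Sdhb, the iron-sulfur subunit of succinate dehydrogenase, was at 63.9, 62.7 and 70.4 CPM against 98.7, 81.7 and 95.2 CPM (-0.48, SE 0.13). Of 31 proteasome genes, 30 were negative and 16 entirely below wild type. Psmb2, a core subunit, was at 97.9, 94.3 and 113 CPM in mutant and 138, 131 and 147 CPM in wild type (-0.45, SE 0.13). Of 47 cytosolic ribosomal protein genes, 46 were negative but only 7 entirely below wild type. Rpl11 was at 410, 406 and 469 CPM in mutant and 675, 516 and 827 CPM in wild type (-0.65, SE 0.20). Ribosomal protein genes have many processed pseudogenes, which makes their counts less certain. With length and GC trends removed, Cox7a2 was at -0.64, Psmb2 at -0.17 and Rpl11 at -0.42. The medians of the 3 lists were -0.42, -0.42 and -0.44, and without wild type 3 they were -0.28, -0.21 and 0.00.

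Genes of actin turnover and redox defence were among the lower named genes. Arpc3, a subunit of the Arp2/3 actin nucleator, was at 47.4, 46.2 and 51.5 CPM in mutant and 93.1, 92.3 and 68.6 CPM in wild type (-0.81, SE 0.16). The capping protein subunit Capza1, named from the actin list, was at 118, 114 and 125 CPM against 177, 155 and 164 CPM (-0.47, SE 0.12). DESeq2 called both (adjusted p = 0.0101 and 0.0284). Of 29 actin nucleation and turnover genes, 25 were negative and 8 entirely below wild type (beside 6.68% of all genes), with a median of -0.20. Its value on the TPM scale was 0.00, beside 0.12 for all genes. Ddt, a tautomerase related to the cytokine MIF, was at 8.12, 8.50 and 8.05 CPM in mutant and 13.2, 13.1 and 14.2 CPM in wild type (-0.71, SE 0.17, DESeq2 adjusted p = 0.000987), and at -0.46 with length and GC trends removed. Prdx1 was at 142, 134 and 192 CPM in mutant and 301, 268 and 340 CPM in wild type (-0.96, SE 0.21), and the redox protein Txn1 at 92.6, 92.0 and 124 CPM against 191, 175 and 175 CPM (-0.81, SE 0.20). Neither gene overlapped between the groups. The NRF2 antioxidant list that holds them had 16 of 23 members negative and only 3 entirely below wild type, the third being the pentose phosphate enzyme Taldo1, named from that list (-0.49, SE 0.13). The list median was -0.27, 0.00 without wild type 2 and 0.01 on the TPM scale, beside 0.12 for all genes.

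The other genes among the 15 with the smallest p on the lower side had log2 fold changes between -0.94 and -0.75. They were Snrnp25 of the minor spliceosome (-0.94, SE 0.21), the mitochondrial import factor Dnajc19 (-0.89, SE 0.20), the nuclear pore gene Nup37 (-0.91, SE 0.22) and the mitochondrial ribosomal gene Mrpl33 (-0.75, SE 0.18). The acyl-CoA binding protein Dbi (-0.79), the aldo-keto reductase Akr1b8 (-0.93), Myeov2 of the COP9 signalosome (-0.78), Stra13 (-0.75) and Arl6ip1, which shapes the endoplasmic reticulum (-0.76), were in the same range. Sec11c, a signal peptidase subunit, was at 7.68, 7.18 and 7.50 CPM in mutant and 12.7, 12.5 and 12.7 CPM in wild type, and its gap of 1.63-fold was among the widest on this side in genes of at least 5 CPM.

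The sign of the differences varied with transcript length. The longest transcript of each gene (GENCODE M21) had a median of 3393 bases over the 14616 tested genes with a length. The 15 higher genes with the smallest p had a median of 5186 bases, and the 13 of the 15 lower ones with a length had a median of 1358 bases. Genes were split by length into 5 groups of equal size. In the group of shortest transcripts (109 to 1977 bases) the median log2 fold change was -0.24, and 13.4% of genes were entirely below wild type against 1.8% entirely above. In the group of longest transcripts (5289 bases and more) the median was 0.08, with 1.7% below and 12.9% above. The trend was not the same in each library. The median deviation of the shortest group was -0.09, -0.08 and -0.06 in the mutants and -0.01, 0.03 and 0.13 in wild type 1, 2 and 3. Across genes, which are not independent, Spearman's rank correlation between length and log2 fold change was 0.28. RNA quality was not measured in the files, and its part in the trend was not tested. With each library's length trend removed, the medians became -0.21 for the respiratory chain, -0.25 for the proteasome and -0.25 for ribosomal proteins. Those of replication (-0.58), mitosis (-0.75), cholesterol synthesis (-0.81) and the interferon response (-0.91) were nearly as before.

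**Figure D4:**
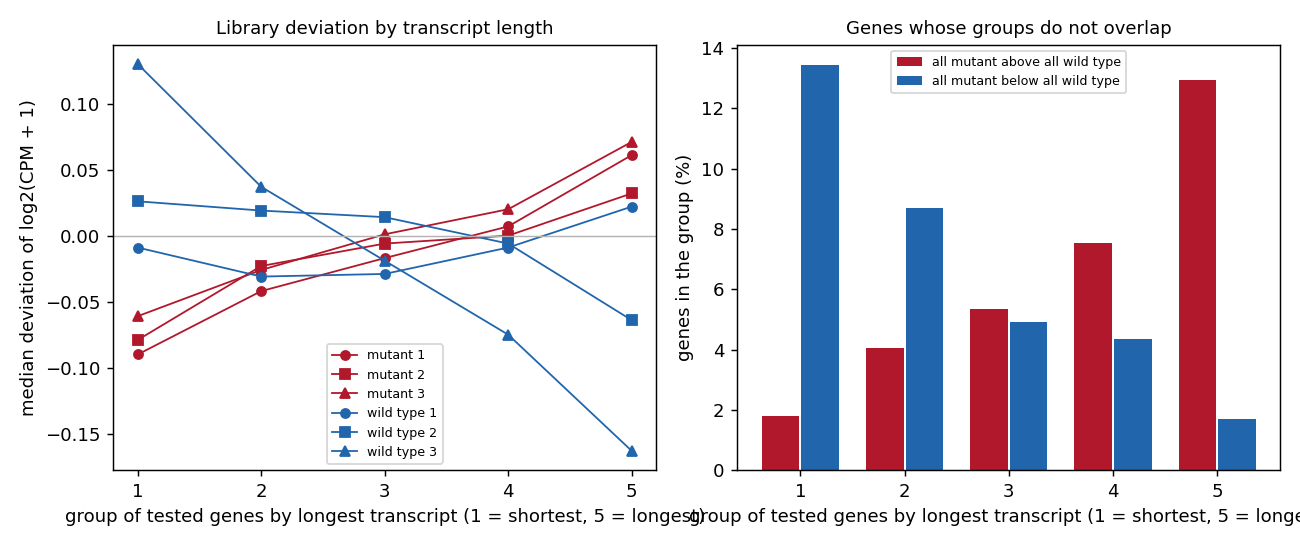
Left, the median deviation of log2(CPM + 1) from the mean of the 6 libraries in each of 5 equal groups of tested genes by transcript length, 1 line per library. Right, the percentage of genes in each group whose 3 mutants all lay above (red) or all below (blue) the 3 wild-type libraries, which passes from 1.8% above and 13.4% below in the shortest group to 12.9% above and 1.7% below in the longest.

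Signalling pathways tied to cilia and neural tube closure had small median differences. Of 28 Hedgehog pathway genes, 20 were positive with a median of 0.14, and 5 were entirely above wild type, beside 6.34% of all genes. Gli2, the main activating transcription factor of the pathway, was at 82.4, 80.3 and 59.7 CPM in mutant and 58.8, 44.3 and 45.3 CPM in wild type (0.58, SE 0.22, edgeR adjusted p = 0.605), with mutant 3 barely above wild type 1. The coreceptor Boc was at 119, 112 and 132 CPM against 74.1, 72.7 and 48.6 CPM (0.89, SE 0.35), and the forkhead factor Foxc2 at 35.7, 39.8 and 46.5 CPM against 25.5, 25.4 and 16.8 CPM (0.85, SE 0.22). Ptch1 and Gli1, direct targets of the pathway, overlapped between the groups. Ptch1, the receptor and a target, was at 15.1, 14.6 and 16.1 CPM in mutant and 26.7, 10.9 and 10.5 CPM in wild type (-0.07, SE 0.40), and without wild type 1 it was 0.52. Gli1 was near 1 to 2 CPM in every library (-0.20, SE 0.66). Removing the length and GC trends took Gli2 to 0.23 and the list median to -0.06.

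Of 31 Wnt genes, 24 were positive and 7 were entirely above wild type, beside 6.34% of all genes, with a median of 0.25. Dkk3, a secreted protein of the Dickkopf family, was at 56.7, 46.2 and 41.0 CPM in mutant and 24.8, 27.1 and 22.2 CPM in wild type (0.96, SE 0.30). The coreceptor Lrp6 was at 196, 186 and 208 CPM against 151, 135 and 134 CPM (0.49, SE 0.17). The median of 21 planar cell polarity genes was 0.20, and 1 of the 21, Dvl3, a cytoplasmic transducer of Wnt signals, was entirely above wild type (0.40, SE 0.14). With length and GC trends removed those medians were 0.10 and 0.03, and Lrp6 was at 0.31. Of 22 neural tube closure genes, 5 were entirely above wild type, beside 6.34% of all genes, and the median was 0.11. That median was 0.04 with the length trend removed and -0.01 with length and GC trends removed. Cobl, an actin nucleator, was at 34.1, 35.3 and 29.6 CPM in mutant and 11.7, 20.3 and 18.7 CPM in wild type (0.97, SE 0.28). The zinc finger factor Zic5 was at 2.75, 3.40 and 4.43 CPM against 1.71, 0.848 and 1.33 CPM (1.44, SE 0.57), and the actin regulator Enah was at 0.45 (SE 0.18).

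One-carbon and methylation genes are of interest here because folate supply is the study's variable, although it did not differ between these groups. Of 33 folate and one-carbon genes, 15 were positive and 18 negative, with a median of -0.07. Besides Tyms, Ahcy, which clears S-adenosylhomocysteine, was at 2.60, 4.07 and 3.15 CPM in mutant and 5.13, 3.70 and 6.56 CPM in wild type (-0.65, SE 0.29), and its groups overlapped. Of 16 DNA methylation and TET genes, Tet3 was 1 of 2 with groups that did not overlap, beside 13% of all genes. The list median was 0.10, and -0.006 with length and GC trends removed. The de novo methyltransferase Dnmt3a overlapped (0.57, SE 0.26, edgeR adjusted p = 0.632). Of 32 histone methylation enzymes, 11 were entirely above wild type and 1 below, beside 6.34% and 6.68% of all genes, with a median of 0.19. Beside Kdm6b, the demethylase Kdm5b was at 211, 217 and 182 CPM in mutant and 108, 139 and 156 CPM in wild type (0.60, SE 0.19). The methyltransferase Setd1b was at 74.9, 84.2 and 65.1 CPM against 44.6, 56.5 and 52.7 CPM (0.54, SE 0.17). These are long transcripts, with a median of 6363 bases over 31 of the enzymes, and with the length trend removed the median of the list was 0.05. With length and GC trends removed, Kdm5b was at 0.36 and Setd1b at 0.06.

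**Figure D5:**
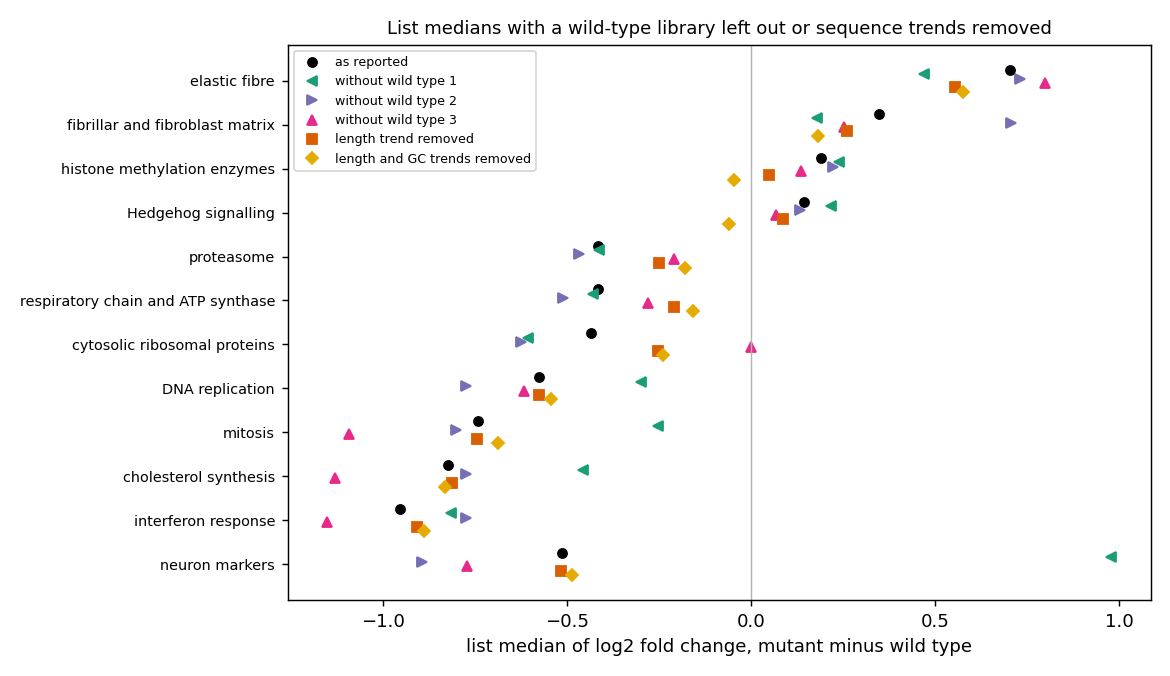
Median log2 fold change (mutant minus wild type) of 12 gene lists with all libraries, with each wild-type library left out, and with sequence trends removed. Elastic fibre, interferon, cholesterol synthesis, replication and mitosis medians keep their sign in all 6 settings drawn. The last 3 are nearest 0 without wild type 1, at -0.46, -0.30 and -0.25. Ribosomal proteins reach 0.00 without wild type 3. Neuron markers go from -0.52 to 0.98 without wild type 1 (and to 0.10 on the TPM scale, which is not drawn).

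The genotype difference in the moderate arm was also compared with that in the fortified arm. No gene passed the interaction test (0 of 15186, 0%, edgeR with Benjamini-Hochberg adjustment), the lowest adjusted p was 0.708, and 1015 genes had an unadjusted p under 0.05. The named genes often had other values in the fortified cells. Of the 15 higher genes with the smallest p, 6 had a positive log2 fold change there, and of the 15 lower ones 4 had a negative one. Eln averaged 1292 CPM in fortified mutant and 1855 CPM in fortified wild type, a log2 fold change of -0.52 against 1.55 in the moderate arm. Itga11 was at -0.85 there and Cmklr1 at -0.08. The interaction, moderate minus fortified, was 2.08 for Eln, 2.70 for Itga11 and 1.29 for Cmklr1, each with an edgeR adjusted p of 0.708. These genes were picked for their differences in the moderate arm. That difference is part of the interaction, so its size in them is partly set by the choice. A difference between the arms was therefore not resolved for any single gene, and the unadjusted values are given as a description.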

How the data were processed

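RNA was measured in 12 libraries of primary fibroblasts, prepared with the TECAN Universal Plus mRNA-Seq kit per the labels' protocols. The deposited gene table holds estimated counts that need not be whole, merged from salmon per its file name, and a second deposited table holds TPM, scaled by the authors for transcript length and library size. The build is mm10 per the submitters' processing notes, and the settings of the counting tool are not stated in the labels or files. Estimated counts were rounded, filtered (filterByExpr, minimum count 10, minimum total 15, leaving out 9093 genes), scaled by TMM and tested with edgeR 4.0.16 in 1 model of 4 groups (R 4.3.3), two-sided, with Benjamini-Hochberg adjustment over all genes. CPM use TMM-scaled library sizes. The SE printed with an edgeR log2 fold change is its absolute value divided by the square root of the F statistic. Alternatives used DESeq2 1.42.0 (1492 adjusted p not assigned) and limma 3.58.1 on counts and on TPM, other scalings and filters, 1 library left out, and a replicate block. Length and GC trends were removed per library by a natural spline with 5 degrees of freedom, an alternative chosen after seeing the data, as was leaving out libraries under DESeq2. Lengths and coordinates came from GENCODE M21 (GRCm38). Only the edgeR fit was run on simulated counts, which gave each gene the same spread in every group, unlike these libraries. DESeq2 and limma were not checked in this way.

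Genes were named by rule: the 15 smallest p in each direction with at least 5 CPM and groups that did not overlap, the 10 smallest DESeq2 adjusted p, the 5 widest gaps, CPLANE and other set genes, and up to 4 members (or all of up to 8) of each of 48 lists. Clone-type names and multi-copy families were left out or remarked on. Szrd1, Spen, Fbxo42, Mcm5 and Capza1 were named after their values were seen or for their position. The members and lists were chosen with earlier results of these data known. Some items are not reported here.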

Additional observations from a re-analysis of the deposited data

How the results depend on the processing

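Every setting that kept the quasi-likelihood test or limma gave 0 genes passing, and DESeq2 gave 50, and 8, 4, 57, 240, 266 and 168 without mutant 1, 2, 3 and wild type 1, 2, 3. The count at an unadjusted p under 0.05 was 184 with a test against a 1.5-fold change and 701 with length and GC trends removed, and ran from 584 to 2063 when 1 library was left out. It was between 882 and 1772 under the others. Deviations of same-numbered mutant and wild-type libraries correlated at 0.235, -0.0268 and 0.105, and those of differently numbered ones at -0.271 to 0.11. With 3 libraries a group, these values cannot decide whether the replicate numbers pair the libraries. With the replicate block 1109 genes had an unadjusted p under 0.05 and 0 passed. Fitting the 6 moderate libraries alone gave 882 genes at an unadjusted p under 0.05, and 904 with the replicate block. Ptch1 turned positive under limma-voom (0.26), limma on log2(TPM + 1) (0.20) and log2(TPM + 0.1) (0.24), and the replicate block in 6 libraries (0.0732). Tubb3, a neuron marker at -0.89, was 0.0511 under limma-voom. Intu was -0.15 with the length trend and -0.0842 with both trends removed. With 1 library left out, log2 fold changes ran from -0.300 to 0.517 for Ptch1, -0.151 to 0.358 for Intu, -0.441 to 0.0837 for Gli1, -0.0678 to 0.746 for Rarres2, -1.10 to 0.0189 for Gpr1, -1.34 to 0.448 for Tubb3 and -0.566 to 0.0283 for the methylation reader Uhrf1. The cause of these changes was not tested. With 3 libraries a group and a common biological coefficient of variation of 0.332, differences of low genes such as Rsg1, Gli1 and Rarres2 were limited by depth as well as by spread.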

Other observations

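Several groups of genes outside the pathways above had members whose libraries did not overlap between genotypes. The same held for 13% of all tested genes, 6.34% entirely above and 6.68% entirely below wild type. Immediate early genes, which respond within minutes to serum or growth factors, were positive in 19 of 24, with 6 entirely above and none entirely below wild type (median 0.22, and 0.09 without wild type 3). Egr3 was at 14.6, 12.3 and 17.2 CPM in mutant and 7.55, 7.40 and 7.00 CPM in wild type (1.01, SE 0.28), and Egr1 at 498, 443 and 478 CPM against 377, 228 and 221 CPM (0.78, SE 0.45). ATF4 targets and unfolded protein response genes were positive in 23 of 34, with 8 entirely above and 1 entirely below wild type. The amino acid transporter Slc7a5 was at 462, 498 and 763 CPM in mutant and 136, 442 and 343 CPM in wild type. The list score of wild type 1 (-0.998) was far under those of the other libraries, and the median of 0.31 was 0.01 without it. Glycolysis and hypoxia genes were negative in 22 of 28, with Ldha at 365, 390 and 505 CPM in mutant and 577, 785 and 632 CPM in wild type. Their median of -0.24 was -0.01 without wild type 2.

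Markers of mesenchymal subtypes also varied. All 10 pericyte and smooth muscle markers were positive, with Myh11, the smooth muscle myosin, at 540, 446 and 255 CPM in mutant and 173, 172 and 133 CPM in wild type (1.38, SE 0.54). Of 15 tested cartilage markers, 11 were positive and 4 negative, down to -1.69. Of the 15, 2 were entirely above wild type, Col11a1 and Sox9, beside 6.34% of all genes. Col11a1 was at 558, 446 and 602 CPM against 385, 231 and 222 CPM (0.94, SE 0.24), and Sox9, the factor that specifies cartilage, at 24.7, 24.7 and 23.7 CPM against 18.2, 13.4 and 12.4 CPM (0.73, SE 0.36). The list median moved from 0.64 to 1.74 without wild type 1 and to 0.02 without mutant 3. The homeobox gene Dlx5 was at 15.7, 19.5 and 13.2 CPM in mutant and 7.96, 4.91 and 5.02 CPM in wild type (1.43, SE 0.50). Of 14 fibroblast markers, 9 were positive, with a median of 0.25, while S100a4, a marker of fibroblast state, was at 5.97, 6.71 and 10.9 CPM in mutant and 14.0, 95.9 and 44.2 CPM in wild type (-2.71, SE 0.93). None of these genes passed the edgeR test, with adjusted p of 0.588 to 0.698 for those named here with a fold change.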
